A study of Oryza sativa with 4 samples.

Results

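The genes described here stood high in leaves of control 1, the library whose treatment label gives 25 °C, and lower in the other 3 libraries, all labelled 30 °C. They were chosen by their own values. An ID was kept where control 1 reached a level of at least 20 CPM (the expected count scaled to a library total of 1000000) and at least 2.5 times the largest CPM of the other libraries. Of the 37858 gene IDs in the table, 8794 had at least 20 CPM in control 1, and 14 of these met the rule. The excess in control 1 is therefore a description and has no test.

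All 4 libraries held leaf RNA of Nipponbare, the japonica cultivar behind the rice reference genome, from progeny in a study of seeds treated with heat. Control 1 and control 2 have control titles, but only control 1 is labelled 25 °C, whereas control 2 carries the 30 °C label of heated 1 and heated 2. What distinguishes control 1 by its temperature label thus rests on 1 library, and a temperature effect and a deviation of that library cannot be told apart. No label states that replicates were separate plants, and p-values then measure a spread that may be technical. Total expected counts ranged from 15444235 in control 1 to 17298384 in heated 1. Because no ID of the group could be given a gene name, leaf marker genes and pathways were not analysed here.

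Plants sense temperature from the seed onwards, and an earlier exposure can leave traces in later gene expression, which is called stress memory. Rice locus IDs name the chromosome in the digits behind Os and number the loci by their order on it. A locus ID may stand for a coding gene, a non-coding transcript or a model that overlaps its neighbour. Where transcripts share sequence, RSEM divides the shared reads among them by its estimate of their abundance, so that a count under one ID depends on the counts of its partners.

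Together the 14 genes took 669.6 CPM in control 1, 178.0 CPM in control 2, 147.4 CPM in heated 1 and 129.1 CPM in heated 2. The median member had 36.1 CPM in control 1, 10.1 CPM in control 2, 8.85 CPM in heated 1 and 7.81 CPM in heated 2. Levels in control 1 ran from 25.6 CPM for Os11g0227250 to 97.0 CPM for Os04g0473150. In the other 3 libraries the highest value of any member was 29.8 CPM. On log2(CPM + 0.5), the median difference of control 1 from the mean of the others was 2.32 over the members and -0.07 over all IDs of at least 20 CPM in control 1.

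**Figure D1:**
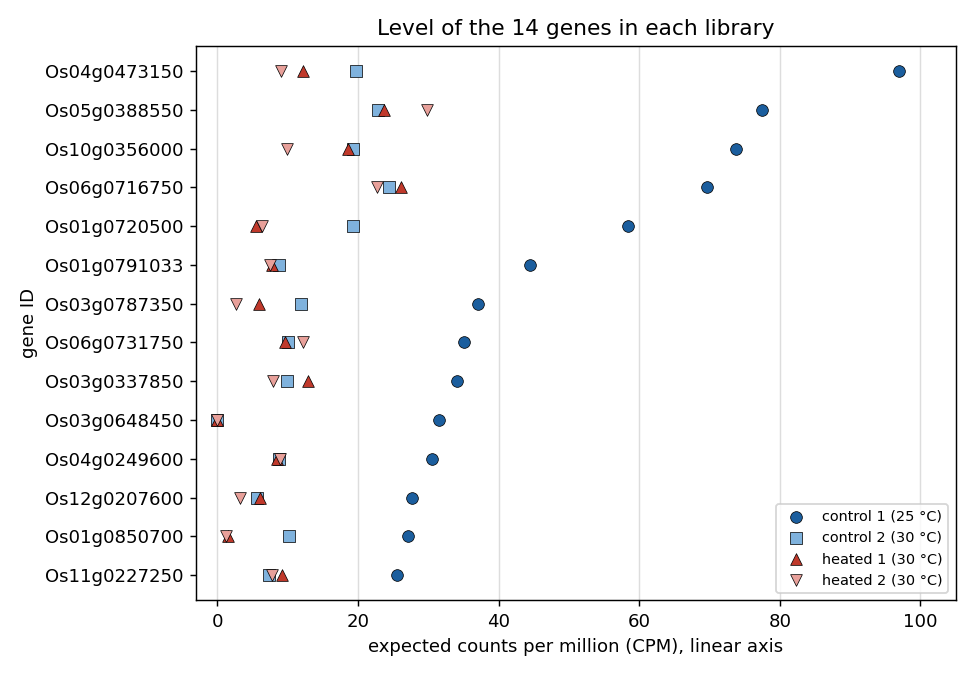
The plot shows the CPM (x axis, linear) of each of the 14 genes (y axis, ordered by the level in control 1) in the 4 libraries, 1 point per library. Control 1 lies between 25.6 and 97.0 CPM, and the other 3 libraries lie between 0 and 29.8 CPM.

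The ratio of control 1 to the largest other library was 2.60 for Os05g0388550, the member nearest to the limit of the rule, and 5.07 for Os01g0791033, the highest ratio that could be computed. It was under 3 in 6 members and at least 4 in 4 members. Os03g0648450 is counted among the latter, although its ratio has no finite value. It had 486.03 expected counts in control 1, or 31.5 CPM, and was listed at 0 in the other 3 libraries. Against a floor of 3 counts in a library, its counted level in control 1 was at least 174-fold higher. That floor covers counting error only and not a division of reads with another ID. Just outside the rule, Os01g0238500 had 57.7 CPM in control 1 at a ratio of 2.48, and Os11g0264500 had a ratio of 3.21 but only 18.6 CPM. With Os01g0238500 included, 15 IDs of at least 20 CPM in control 1 had ratios between 2 and 2.5.

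The same rule applied to the other libraries in turn gave 28 IDs for heated 1, 2 for control 2 and 0 for heated 2. A set of 14 genes high in 1 library alone was thus smaller than the set of 28 found for a library of the heated pair. The opposite rule for control 1, at least 20 CPM in each of the other 3 libraries and control 1 lower by at least 2.5 times, gave 68 IDs. Genes low in control 1 alone were more numerous than genes high in it.

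The members shared features that the rule had not used. The ID did not end in 00 in 9 of 14 members (64.3%). This share was 3.42% over the 8794 IDs of at least 20 CPM in control 1 and 21.1% over all 37858 IDs. A fractional expected count, the sign of reads divided between IDs, was found in 10 of 14 members (71.4%). It was found in 21.8% of those 8794 IDs and in 19.5% of all IDs. In 6 members (42.9%) the fractional counts of the member and of the ID next to it summed to whole numbers in all 4 libraries. The tolerance was 0.015, and the share was 13.9% over those 8794 IDs and 13.5% over all IDs. In 5 of these members the search of all other fractional IDs found the adjacent ID as the only such partner, whereas for Os03g0648450 the adjacent ID was 1 of 13. The 68 IDs low in control 1 alone held 19 IDs not ending in 00 and 19 with fractional counts, and the 28 IDs high in heated 1 alone held 0 and 8. IDs not ending in 00 were thus also present in the opposite set of control 1, but no share over a matching pool was computed for these sets. Members lay on 8 chromosomes, with 3 each on chromosomes 1 and 3, 2 each on chromosomes 4 and 6, and 1 each on chromosomes 5, 10, 11 and 12.

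These 6 members took a small part of the counts of their pair in the 30 °C libraries and a larger part in control 1. None of them ended in 00, while each partner did. The counting behind the table is not stated to use strand, so a transcript and an overlapping or antisense partner cannot be told apart here.

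Os03g0648450 lies next to Os03g0648400. It held 11.3% of the 4288 counts of the pair in control 1 and 0% of the 5260, 5426 and 5045 counts in control 2, heated 1 and heated 2. The pair as a whole had 277.6 CPM in control 1, 305.6 CPM in control 2, 313.7 CPM in heated 1 and 303.8 CPM in heated 2. The sum was therefore lowest in control 1, the library in which the member was highest. Only the count of control 1 was fractional in this pair. Besides the adjacent ID, 12 IDs elsewhere also gave whole sums with this member, so the pairing rests on 1 library and on the adjacent position, and a division of reads with Os03g0648400 is not settled.

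Os03g0787350 held 12.2% of the counts shared with Os03g0787300 in control 1, 3.56% in control 2, 2.29% in heated 1 and 1.08% in heated 2. The pair summed to 303.7 CPM in control 1 and 333.6 CPM in control 2, above the 260.7 and 250.9 CPM of heated 1 and 2. The part of the member was highest in control 1, whereas the sum was highest in control 2.

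Os05g0388550 was the second most abundant member, with 77.5 CPM in control 1 and 22.8, 23.7 and 29.8 CPM in control 2, heated 1 and heated 2. It held 11.8% of the pair with Os05g0388500 in control 1, and its part elsewhere was 3.51% to 4.45%. The summed level was 658.1, 650.6, 623.0 and 670.6 CPM in control 1, control 2, heated 1 and heated 2. In the sum, control 1 lay within the range of the other libraries.

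Os06g0716750 had 69.6 CPM in control 1, with 24.4 CPM in control 2, 26.1 CPM in heated 1 and 22.7 CPM in heated 2. It took 13.2% of the counts shared with Os06g0716700 in control 1 and 4.11% to 5.64% elsewhere. The pair summed to 528.7 CPM in control 1, within the range of 403.1 to 592.5 CPM of the others.

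Os06g0731750 took 27.0% of the counts of its pair with Os06g0731800 in control 1 and 6.83% to 8.80% in the other 3 libraries. The sum was 129.95 CPM in control 1 and 134.9 to 141.2 CPM in the others. Os11g0227250 had the largest part of a pair, 41.7% of the counts shared with Os11g0227200 in control 1 and 8.40% to 9.69% elsewhere. Its partner was itself low in control 1, at 35.8 CPM against 74.8 to 85.8 CPM. The sum of this pair was 61.4 CPM in control 1 and 82.6 to 94.98 CPM in the others.

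In all 6 pairs the summed level in control 1 was below that of at least 1 other library, with ratios of 0.646 to 0.981 to the largest, and in 3 pairs it was below all of them. The partner was below the largest other library in 6 of 6 pairs, at 0.417 to 0.906 of it. With each such pair of adjacent IDs taken as 1 unit over the whole table, 8 units met the rule, and all 8 were members outside these pairs.

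**Figure D2:**
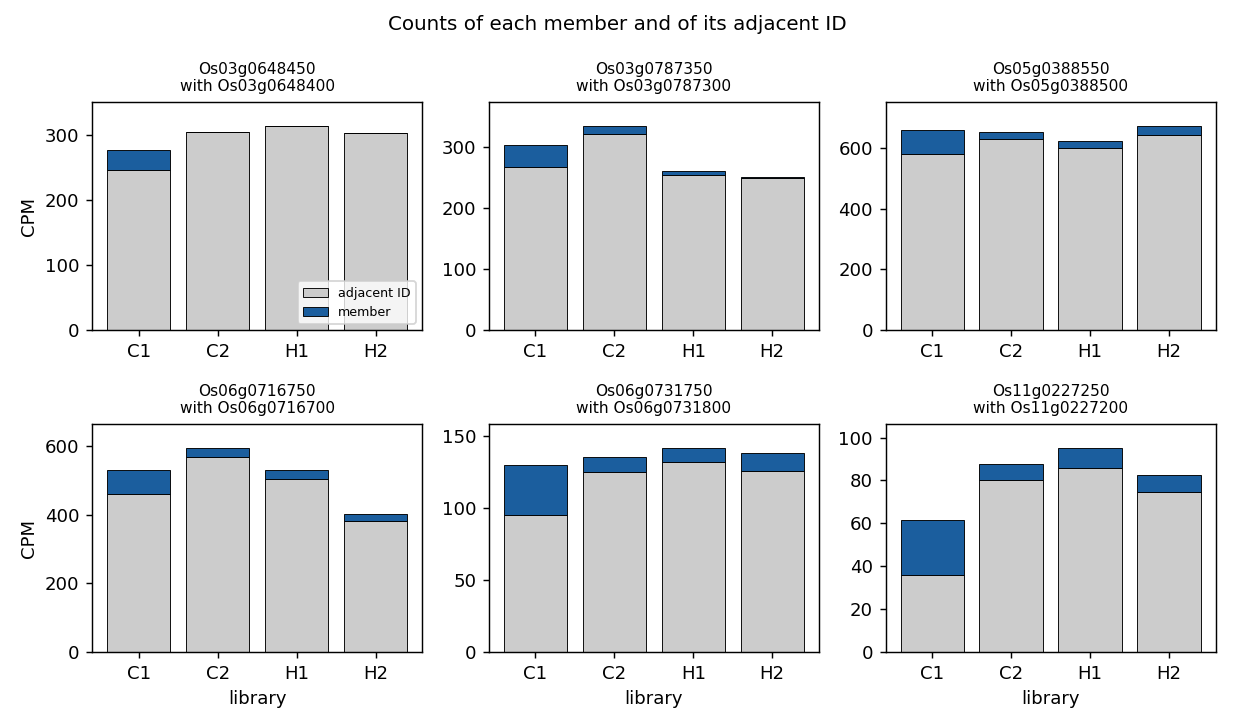
The bars show the CPM (y axis, from 0) of 6 members (blue) stacked on that of the adjacent ID with which their counts sum to whole numbers (grey) in control 1 (C1), control 2 (C2), heated 1 (H1) and heated 2 (H2). The blue part is largest in C1 in each of the 6 panels. The full bar in C1 is lowest for Os03g0648450, Os06g0731750 and Os11g0227250 and within the range of the other libraries for the remaining 3.

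A shift of this kind was not general in control 1. Over 809 further adjacent pairs with whole sums, in which 1 ID ends in 00 and the other does not and the sum was at least 20 CPM in each library, the ID not ending in 00 took a median of 0.444% of the counts in control 1. This median was 0.599% in control 2, 0.572% in heated 1 and 0.523% in heated 2. Control 1 had the highest part in 221 of these pairs, and control 2, heated 1 and heated 2 had it in 235, 167 and 184. The lowest part fell to control 1 in 237 pairs and to the others, in that order, in 114, 121 and 107. A part of at least 5% and at least 2.5 times the largest other library was found in 15 further pairs for control 1, in 3 for control 2, in 1 for heated 1 and in 0 for heated 2. Large single shifts were thus counted most often in control 1, although its median was the lowest of the 4 libraries. This description was chosen after the values of the members were seen.

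**Figure D3:**
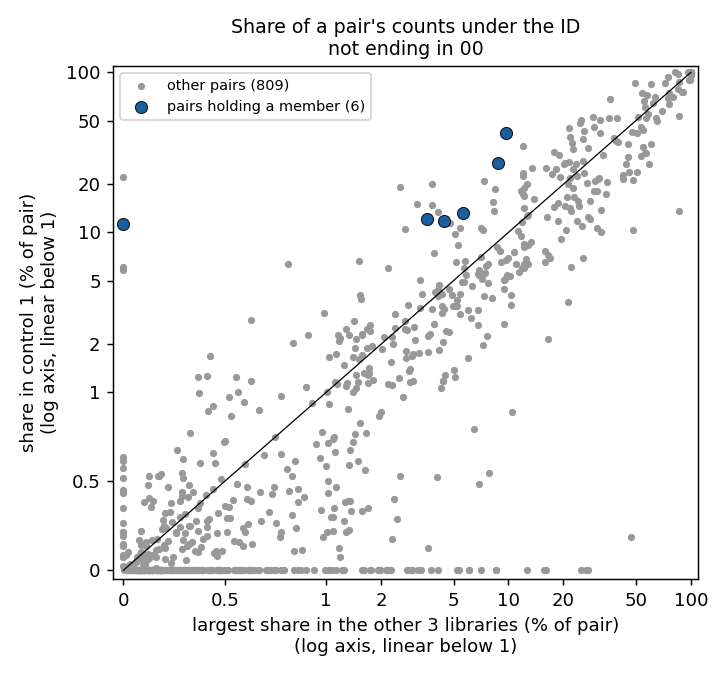
Each point is an adjacent pair of IDs whose counts sum to whole numbers, with the part of the counts under the ID not ending in 00 in control 1 (y axis, percent) and its largest part in the other 3 libraries (x axis, percent), both on log axes that are linear below 1. The 6 pairs with a member (blue) lie above the line of equal parts, and the 809 others (grey) lie on both sides of it.

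Another 4 members had fractional counts with no such neighbour. Os10g0356000 had 73.8 CPM in control 1, 19.2 CPM in control 2, 18.6 CPM in heated 1 and 9.86 CPM in heated 2. Os12g0207600 had 27.7, 5.63, 6.01 and 3.22 CPM in these libraries, with heated 1 above control 2. Both were highest in control 1 and lowest in heated 2, and heated 1 stood nearer to control 2 than to heated 2.

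Os01g0791033 had 44.5 CPM in control 1 and 8.77, 7.75 and 7.51 CPM in control 2, heated 1 and heated 2. The 3 libraries at 30 °C were close together, with the largest at 1.17 times the smallest. Both IDs next to it were listed at 0 in all 4 libraries. Os03g0337850 had 34.1 CPM in control 1, 9.89 CPM in control 2, 12.9 CPM in heated 1 and 7.88 CPM in heated 2. The preceding ID Os03g0337800 was low in control 1, at 223.5 CPM against 252.4 to 295.2 CPM. In the search of all other fractional IDs, Os01g0791033 gave whole sums in all 4 libraries with 2 IDs on chromosome 6, Os06g0176000 and Os06g0177100, which held the same 4 counts as each other. For the remaining 3 genes the search found 0 such IDs, and divisions among more than a pair of IDs were not sought.

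The remaining 4 members had whole counts in every library. Os04g0473150 was the most abundant of all, with 97.0 CPM in control 1 (exact 95% Poisson interval 92.1 to 102.0, counting error only), 19.8 CPM in control 2, 12.1 CPM in heated 1 and 9.03 CPM in heated 2. Its 1498 counts in control 1 compare with 340, 210 and 150 in the others. The following ID, Os04g0473400, had 113.6 CPM in control 1 and 94.8 to 102.1 CPM in the others, a ratio of 1.11 to the largest of them.

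Os04g0249600 had 30.5 CPM in control 1 and was nearly level in the other libraries, at 8.77 CPM in control 2, 8.498 CPM in heated 1 and 8.85 CPM in heated 2. The largest of these was 1.04 times the smallest, the narrowest range of any member with a count in them. The following ID, Os04g0249700, had 57.1 CPM in control 1 and 48.2 to 56.8 CPM in the others.

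Os01g0720500 had 58.5 CPM in control 1 (exact 95% Poisson interval 54.7 to 62.4), 19.3 CPM in control 2, 5.49 CPM in heated 1 and 6.38 CPM in heated 2. Os01g0850700 had 27.1 CPM in control 1 (24.6 to 29.9), 10.2 CPM in control 2, 1.45 CPM in heated 1 and 1.26 CPM in heated 2. In both genes control 2 stood between control 1 and the heated pair, and the heated libraries lay close together. The IDs on either side of Os01g0720500 had their lowest levels in control 1, at 9.06 and 16.8 CPM, and their highest in control 2, at 22.0 and 26.9 CPM.

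Whether control 2 differed from the heated pair is the comparison among these libraries that leaves out control 1. It was fitted over all genes with edgeR's quasi-likelihood test, in which the single control library was assumed to vary like the heated pair. Control 2 has no replicate, and the fit also borrows spread over all genes, so single members are given fold changes without p-values. The rule also limits the largest of these 3 libraries, so the calls are not independent of the choice of members and are read as a description of them. Of 13 members tested, 2 were called lower in heated leaves and 0 higher at a Benjamini-Hochberg adjusted p under 0.05. Over all 23140 genes tested, 2.18% were called, 1.11% as lower and 1.07% as higher in heated leaves.

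Os01g0850700 was lower by 2.94 on the log2 scale in the heated pair than in control 2, and Os01g0720500 by 1.73. Both genes were lower in 2 of 2 heated libraries. Os04g0473150 had a log2 fold change of -0.93 and Os03g0787350 one of -1.48. The other 9 members in the fit had log2 fold changes between -0.47 and 0.20. Os03g0648450 was at 0 in these 3 libraries and was not tested.

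**Figure D4:**
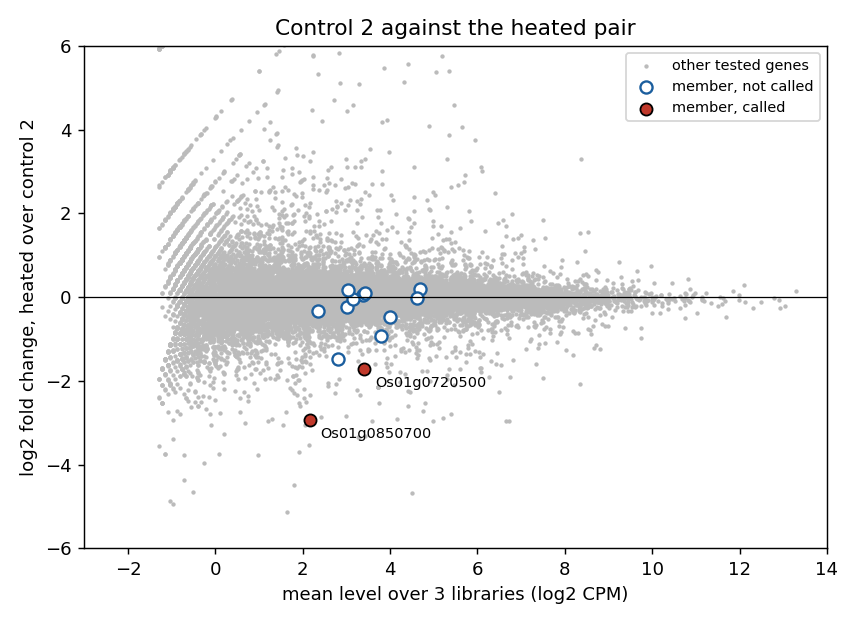
The plot shows the log2 fold change of heated over control 2 (y axis) against the mean level over these 3 libraries (x axis, log2 CPM) for the genes tested, of which 200 lie outside the axes. The 2 members with the largest falls (red) lie at -2.94 and -1.73, and the 11 others (open) lie between -1.48 and 0.20.

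Control 2 lay above both heated libraries in 6 of 14 members (42.9%) and below both in 2 (14.3%). Over all IDs of at least 20 CPM in control 1 these positions were taken by 31.3% and 39.9%. Between heated 1 and heated 2, 1 member differed by at least 2-fold in CPM, compared with 7.01% of genes tested. This was Os03g0787350, at 5.96 and 2.71 CPM.

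The contrasts that hold control 1 were used by the rule, and nothing is read from the members' counts in them. By treatment label, with control 1 against the 3 libraries at 30 °C, 9 of 14 members were called lower at 30 °C by the edgeR test, where 0.167% of all 23285 genes tested were. By title, with both controls against both heated libraries, 1 of 13 members tested was called lower in heated leaves, where 0.451% of 22184 genes were. This member was Os01g0850700, with a log2 fold change of -3.87, a value that includes control 1 and so was partly set by the rule. Leaving out 1 library changed the count by title together with the number of all genes called. Each such fit left 1 library in a group. Only the range of these counts is therefore given, in the last section, and nothing is read from it.

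The number of genes meeting the rule moved most when control 2 was left out. With control 2 left out of it, 90 IDs were at least 2.5 times higher in control 1 than in both heated libraries, and these included the 14 members. The number was 16 without heated 1 and 16 without heated 2. These omissions are not alike, since a heated library leaves its replicate in the rule and control 2 leaves only the heated pair.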

How the data were processed

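Per the submitters' processing notes, the tools were RSEM, Bowtie2, Trimmomatic, FastQC 0.11.7 and edgeR 3.26.3, with the build IRGSP-1.0. Not given in the sources used here were their settings, the annotation and any use of strand. Libraries came from a strand-marking mRNA kit, per the labels' protocols. The deposited values are RSEM expected counts per gene ID, per the file headers, with no normalization.

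CPM was computed from the deposited values and column totals. For tests, expected counts were rounded, filtered by filterByExpr, scaled by TMM and fitted in R 4.3.3 by edgeR 4.0.16 (quasi-likelihood test), which was tested on simulated data. DESeq2 1.42.0 was an alternative. Intervals and the floor of 3 counts cover counting error only. Replicate numbers come from titles and were not taken to pair libraries.

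The members, lists and tests were chosen with earlier results of these data known. The reference table (ASM3414082v1) matched 1 of 37858 IDs and 0 of the 14 members, so the 27 product lists were not used and no sequence is shown. The rule for named genes took members with the largest ratio, the highest level and the largest called fold between control 2 and heated; the remaining members are named because the group is small.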

Additional observations from a re-analysis of the deposited data

How the results depend on the processing

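The number of genes meeting the rule was 17 with TMM-scaled sizes and 17 with median-ratio size factors, each with all 14 members. TMM moved the median log2 difference of control 1 from the others by 0.105 and median-ratio factors by 0.120. The number was 29 at a ratio of 2, 8 at a ratio of 3, 2 at a ratio of 5, 26 at a minimum of 10 CPM, 6 at a minimum of 40 CPM, 4 with whole counts only and 8 with adjacent pairs with whole sums taken as 1, an alternative chosen after seeing the data. Leaving out 1 library at 30 °C gave 16 to 90, the highest without control 2. Between control 2 and heated, 5 other settings were fitted, of which that with 3 groups in 1 fit was chosen after seeing the data. In these 5 settings the log2 fold change of Os01g0850700 was -2.94 to -2.93 and that of Os01g0720500 was -1.73 to -1.72. The number of members called was not stable, since it was higher than in the main fit with no filter and with 3 groups in 1 fit. Leaving out a heated library there would leave 1 library against 1, which has no test and was not run. By title, 3 members were called with no filter, 3 with DESeq2 and 6 with a replicate block, and 0 to 14 when 1 library was left out. The labels do not say that a replicate number marks a batch, and over genes the replicate differences of control and heated correlated at 0.018. Leaving out 1 library by title left 1 library in a group, so nothing is read from the range of those counts. Without control 2, that fit is the contrast that the rule used. By treatment label control 1 stands alone, so no count of calls is given for settings other than the main fit. Nothing is read from the count of the main fit either. Between heated 1 and heated 2, 4 members differed by at least 1.5-fold, compared with 15.2% of genes tested. For all of these values the cause was not tested. With 1 library at 25 °C no depth can separate the label from the library.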
